A study of Mus musculus with 21 samples.

Results

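CD45hi CD11b+ myeloid cells that had entered the brain were compared with CD45lo CD11b+ microglia, both sorted from tissue around the lesion in wild-type (WT) mice 1 d after traumatic brain injury. The 6 libraries, 3 of infiltrating myeloid cells and 3 of microglia, were chosen by their labelled genotype, time and cell type from the 21 RNA-seq libraries of the series. The series was designed around fibrin: it set WT mice beside Fgg γ390–396A mice, whose fibrinogen still clots but carries alanines in the γ-chain stretch bound by the integrin CD11b/CD18, and it holds microglia at 1 and 7 d, infiltrating cells at 1 d and microglia from sham-operated WT mice. Injury was a controlled cortical impact on male mice of the C57BL/6 background aged 17 to 24 weeks, and tissue of 2 brains was pooled for each library, from which 40000 microglia or 25000 infiltrating cells were sorted. No Cre, reporter or transplanted cell was used to tell resident from recruited cells in these libraries: the division rests on surface CD45, so both gates can hold cells of the other origin. The labels call the CD45hi cells macrophages, a name checked against marker genes below. As background for the injury itself, values are also given for 3 libraries of microglia from sham-operated WT mice. The series holds no blood or CD45hi cells of uninjured mice. A difference between infiltrating cells and sham microglia thus mixes cell type with injury.

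Microglia are the resident macrophages of the brain, seeded before birth and kept in their state by CSF1 receptor and TGF-β signals and by transcription factors such as SALL1. After trauma they withdraw their processes and lose part of their homeostatic signature. Monocytes and neutrophils enter from blood through the damaged vessels, drawn by chemokines such as CCL2 and CXCL2, and bring granule proteins, clotting factors and antigen-presenting molecules that resting microglia hold little of.

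Each library held between 23594176 and 44923157 estimated counts, with medians of 25861622 over the infiltrating cells and 34570173 over the microglia, so that 3 counts corresponded to at most 0.158 CPM, counts scaled to a common library total after TMM normalization, in any of the 6. Ribosomal RNA took 43.0 to 52.0% of the counts in infiltrating cells and 50.6 to 58.5% in microglia, and mitochondrial ribosomal RNA alone 16.5 to 19.0% and 28.9 to 35.3%. The groups did not overlap in the latter share, whose part in the results was tested only by removing the ribosomal genes, which left 2844 genes called. All values below are CPM, from deposited counts that the authors' pipeline had already divided by transcript length, so levels can be compared between genes. Differences are log2 fold changes of infiltrating cells over microglia with their SE, n = 3 libraries a group. Adjusted p values are those of edgeR's quasi-likelihood test with the Benjamini-Hochberg method over all 23815 genes tested. The SE is the size of the log2 fold change over the square root of that test's F statistic. It thus rests on a spread estimated over all 21 libraries, not on the 3 replicates alone. A gene was called when the log2 fold change passed 1 in size and the adjusted p was under 0.05. In bulk RNA, fewer cells of a type and less RNA of a gene per cell cannot be told apart.

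Between recruited and resident cells, 2839 genes were called, 11.9% of those tested. Of these, 1337 genes (5.61%) were higher in the infiltrating cells and 1502 (6.31%) were lower. Fitted on the 6 libraries alone, 2350 genes were called, of which 907 were lower, so 61.4% of the calls pointed up against 47.1% with all libraries sharing the estimate of spread. The genes with the smallest p among abundant genes named a broad set of functions. Tmsb10, which binds monomeric actin, stood at 609.98, 599 and 529.7 CPM in the 3 infiltrating libraries and at 46.6, 36.1 and 49 CPM in the 3 microglial libraries (log2 fold change 3.72 ± 0.21, adjusted p = 7.77e-09). Bhlhe40, a repressor of IL-10 in myeloid cells, was measured at 104, 98.1 and 115 CPM against 5.57, 2.61 and 2.69 CPM (log2 fold change 4.87 ± 0.36, adjusted p = 7.38e-08). The fatty-acid carrier gene Fabp5 was at 226, 372 and 233 CPM against 7.63, 10.7 and 9.76 CPM (log2 fold change 4.89 ± 0.33, adjusted p = 3.75e-08). These genes were ranked by their adjusted p among genes whose groups did not overlap. Prdx6, an antioxidant enzyme (log2 fold change 3.67 ± 0.24), and Cyth1, an exchange factor for ARF GTPases (3.69 ± 0.26), completed the 5 leading genes that were higher.

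In the other direction, Slc12a2, the NKCC1 chloride importer that sets microglial volume and chloride, was at 1.43, 1.58 and 1.17 CPM in infiltrating cells and 12.7, 12.4 and 8.59 CPM in microglia (log2 fold change -3.01 ± 0.21, adjusted p = 3.75e-08). Pros1, which encodes protein S, a bridging ligand of the phagocytic receptor MERTK and an anticoagulant cofactor, was at 15.1, 12 and 13.7 CPM and 90.8, 103 and 91.8 CPM (log2 fold change -2.81 ± 0.20, adjusted p = 3.75e-08). Mef2c, a transcription factor of the microglial program, Asph, an aspartyl hydroxylase, and Tjp1, a scaffold of tight junctions, were the others (log2 fold changes -2.02 ± 0.14, -1.97 ± 0.14 and -2.81 ± 0.19). The plot of fold change against adjusted p shows how far these genes stood from the rest.

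**Figure D1:**
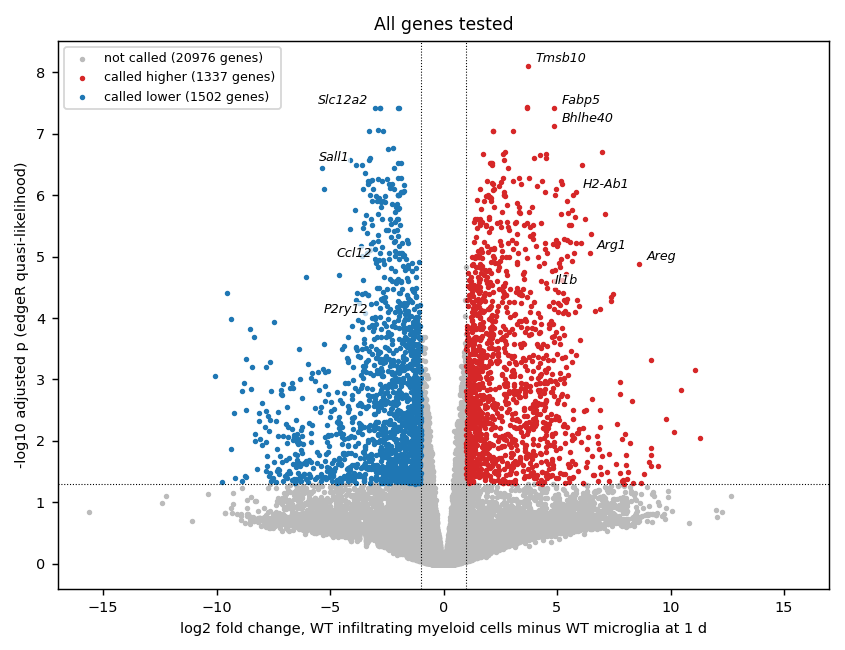
Log2 fold change of WT infiltrating myeloid cells over WT microglia 1 d after injury (x axis) against the negative log10 of the edgeR adjusted p (y axis), 1 point per gene for 23815 genes, with genes called higher and lower in color. The 1337 genes called higher and the 1502 called lower lie on both sides of zero, with Tmsb10, Fabp5, Bhlhe40 and Slc12a2 toward the top.

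Promoters of genes in both directions were searched for short DNA motifs of factors known in myeloid cells, with RefSeq windows of build GRCm38.p6 reaching from 250 bases before to 50 bases after the transcript start. The windows are shown because each carries a motif in a gene whose values are described below, and capitals mark the motif. The motif letters were GAGGAAGT for PU.1, the lineage factor of macrophages, TTGCNNAA for C/EBP factors, TGANTCA for AP-1 (FOS and JUN dimers), GAAA, any 2 bases and GAAA for the interferon response element, and CTA, any 4 bases and TAG for MEF2, searched on both strands, so a motif may stand reversed in the printed strand. The interferon element can overlap the PU.1 letters in part. AP-1 letters near the start of Il1rn (chr2:24336689-24336755, plus strand) and of Ms4a7 (chr19:11334740-11334806, minus strand), and PU.1 letters near S100a8 (chr3:90668869-90668936, plus strand) and Areg (chr5:91139443-91139510, plus strand), stand in genes that were higher in infiltrating cells.
Il1rn: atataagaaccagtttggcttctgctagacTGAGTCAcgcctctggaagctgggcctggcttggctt
Ms4a7: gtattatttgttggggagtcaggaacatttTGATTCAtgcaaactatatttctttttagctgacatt
S100a8: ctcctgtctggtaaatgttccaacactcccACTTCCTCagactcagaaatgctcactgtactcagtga
Areg: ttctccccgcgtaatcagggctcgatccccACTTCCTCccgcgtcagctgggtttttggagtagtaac
In Cybb, the catalytic subunit of the phagocyte oxidase and also higher in infiltrating cells, 3 interferon elements lay within the 198 bases before the start (chrX:9469325-9469522, minus strand). Cx3cr1, lower in infiltrating cells, held MEF2 letters (chr9:120068324-120068393, minus strand).
Cybb: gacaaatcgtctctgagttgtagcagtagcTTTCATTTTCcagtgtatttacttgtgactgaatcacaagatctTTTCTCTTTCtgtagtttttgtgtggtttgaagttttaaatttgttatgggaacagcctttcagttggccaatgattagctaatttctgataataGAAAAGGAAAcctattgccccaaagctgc
Cx3cr1: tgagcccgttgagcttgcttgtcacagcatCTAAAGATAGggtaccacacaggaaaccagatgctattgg

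Among protein-coding genes with a window, AP-1 letters were found for 128 of 992 genes called higher (12.9%), 61 of 945 called lower (6.46%) and 823 of all 12140 tested (6.78%). The PU.1 letters were in 6.96% of the genes called higher, 4.55% of those called lower and 3.69% of all tested, and the interferon element in 7.56, 3.60 and 3.95%. The MEF2 letters ran the other way, with 3.12% of the genes called higher, 5.29% of those called lower and 3.76% of all. For C/EBP both directions were similar, at 13.5 and 13.9% against 10.8%. In these shares a gene counted when any of its windows matched. Per window, AP-1 letters were in 10.8, 5.39 and 5.62% of windows of genes called higher, called lower and all tested. PU.1 letters were in 5.79, 3.57 and 3.07%, and the interferon element in 6.1, 2.85 and 3.24%. MEF2 letters were in 2.55, 4.04 and 3.12%, and C/EBP letters in 11.2, 11 and 9.11%. Over all 32851 windows the shares per window were 3.20% for PU.1, 10.8% for C/EBP, 7.81% for AP-1, 3.44% for the interferon element and 3.69% for MEF2. These shares are counts of letters and carry no test.

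The resident signature was lower in the CD45hi cells almost throughout. Of 26 homeostatic microglial genes, 23 were called lower and none higher, with a median log2 fold change of -2.39 where the median over all genes was 0, although Cd33 was called higher without microglial replicate 1. In 24 of the 26 genes the groups did not overlap, a pattern shown by 15.7% of all genes in that direction. P2ry12 (chr3:59216272-59262871 in GRCm38, as all gene positions here), the ADP receptor that steers microglial processes, was at 79.6, 44.7 and 21.1 CPM in infiltrating cells, 659, 357 and 169 CPM in injured microglia and 4021, 3954 and 4021 CPM in sham microglia (log2 fold change -3.03 ± 0.45, adjusted p = 9.5e-05). Its level in the injured microglia was thus already far under that of sham, and the 3 infiltrating libraries lay lower still. Tmem119, a membrane protein of microglia, was at 49, 39.2 and 22.1 CPM against 194, 151 and 93.7 CPM (log2 fold change -1.99 ± 0.28, adjusted p = 5.25e-05), again without overlap. Sall1, the factor that holds microglial identity, was at 5.3, 5.37 and 2.61 CPM against 89.4, 61.1 and 39.9 CPM (log2 fold change -3.84 ± 0.34, adjusted p = 3.22e-07).

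The fractalkine receptor gene Cx3cr1 was at 76.2, 84.1 and 37.1 CPM in infiltrating cells and 422, 511 and 417 CPM in microglia (log2 fold change -2.77 ± 0.28, adjusted p = 1.31e-06). Csmd3, a complement-control-domain protein, had the lowest fold change of the list, at 0.943, 0.474 and 0.766 CPM against 49.8, 22.3 and 20.4 CPM (log2 fold change -5.35 ± 0.47, adjusted p = 3.59e-07). Every infiltrating library lay under every microglial library in both genes, yet none reached 0. The 26 genes together summed to 4805, 5355 and 3437 CPM in the infiltrating libraries, 20880, 22170 and 18100 CPM in injured microglia and 39500, 39530 and 42880 CPM in sham microglia. The 3 members not called were Tgfbr1, a TGF-β receptor (log2 fold change -0.96 ± 0.22), Selplg, the P-selectin ligand (-0.37 ± 0.28), and the sialic acid receptor Cd33 (0.51 ± 0.33), of which the last 2 overlapped between groups. Tgfbr1 was called lower without infiltrating replicate 1 or microglial replicate 3.

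Markers of inflammatory monocytes were higher in the CD45hi cells. Of 20 genes, 17 were called higher and none lower, with a median log2 fold change of 4.50, and all 20 were higher in every infiltrating library than in every microglial library, against 13.5% of all genes. Ccr2 (chr9:124101950-124113557), the receptor by which monocytes follow CCL2, was at 475, 321 and 260.1 CPM in infiltrating cells and 27.8, 1.99 and 5.27 CPM in microglia (log2 fold change 4.91 ± 0.95, adjusted p = 0.00107). The first microglial library was the highest of its group, and the infiltrating libraries were all above it. Lyz2, the lysozyme of phagocytes, reached 5867, 4680.2 and 5333 CPM against 426, 144 and 147 CPM (log2 fold change 4.47 ± 0.52, adjusted p = 6.06e-06). F10, clotting factor X made by monocytes as well as liver, was at 121, 137 and 215 CPM against 3.17, 0.76 and 3.28 CPM (log2 fold change 6.04 ± 0.70, adjusted p = 6.06e-06).

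Ly6c2, the surface marker of classical monocytes, was at 75.9, 39.2 and 47.4 CPM against 5.34, 0.109 and 0.507 CPM (log2 fold change 4.77 ± 1.37, adjusted p = 0.0214). That call was lost without microglial replicate 2 (adjusted p = 0.0814) or 3 (adjusted p = 0.0867), and its log2 fold change ranged from 4.24 to 7.46 over the libraries left out. Plac8, a small cysteine-rich protein of blood leukocytes (5.11 ± 0.98), and Fn1, fibronectin (3.66 ± 0.57), were also higher. Ifitm6, Ly6i and Ace passed the fold but not the adjusted p (log2 fold changes 3.57, 3.74 and 3.54), though each was called in some other fits. Ifitm6 was called without microglial replicate 1 (adjusted p = 0.0088) and with a replicate block (0.0493), and Ace likewise (0.00231 and 0.0291) and by DESeq2 (0.00758). Ly6i was called by DESeq2 (0.0103) and with the block (0.0253), and both Ace and Ly6i with filterByExpr and with protein-coding genes only. Ly6c2, Ly6c1 and Ly6i are near-identical copies, so their separate values are uncertain. Summed over the list, microglia held 914.2, 615.3 and 620.7 CPM, sham microglia 118, 254 and 555.8 CPM and infiltrating cells 12560, 10320 and 11210 CPM.

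Neutrophil genes were present in the gate called macrophage by its label. Of 16 surface and signaling genes of neutrophils, 13 were called higher and none lower (median log2 fold change 4.32). Cxcr2, the receptor for CXCL1 and CXCL2, was at 138, 85.1 and 277 CPM in infiltrating cells, 4.7, 2.68 and 5.27 CPM in microglia and 0.0637, 0.607 and 5.18 CPM in sham microglia (log2 fold change 5.31 ± 1.03, adjusted p = 0.00114). Il1r2, a decoy receptor that binds IL-1 without signaling, was at 83.9, 44.9 and 110.1 CPM against 3.78, 0.688 and 0.429 CPM (log2 fold change 5.61 ± 0.96, adjusted p = 0.000346). Groups did not overlap for either, and the second infiltrating library was the lowest of its group in both. Csf3r, the G-CSF receptor, which microglia also express, was higher too (1.73 ± 0.25). Ly6g, the defining surface marker of mouse neutrophils, was low, at 3.43, 0.948 and 4.1 CPM against 0.153, 0 and 0 CPM, and was not called (log2 fold change 5.70 ± 2.16, adjusted p = 0.0855), whereas DESeq2 and the fits on the compared libraries or on protein-coding genes only called it.

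Of 17 granule genes, 9 were called higher and none lower. S100a8, a calgranulin subunit of neutrophils and classical monocytes, was at 3793, 1925 and 7308 CPM in infiltrating cells, 288, 75.6 and 274 CPM in microglia and 0.829, 33.8 and 249 CPM in sham (log2 fold change 4.35 ± 1.35, adjusted p = 0.0326). Its groups did not overlap, but the call was lost without infiltrating replicate 3 (adjusted p = 0.0899) or without microglial replicate 1, 2 or 3 (0.0801, 0.121 and 0.0828). Its partner S100a9, at 4079, 1294 and 5067 CPM against 459.8, 42.3 and 218 CPM, was not called (log2 fold change 3.86 ± 1.39, adjusted p = 0.0683). Retnlg (4.80 ± 1.42), the collagenase Mmp8 (5.04 ± 1.06) and the gelatinase Mmp9 (4.48 ± 0.86) were called higher. The call of Retnlg was lost without infiltrating replicate 3 (adjusted p = 0.0509) or microglial replicate 2 or 3 (0.1 and 0.0822). Lcn2, lipocalin-2, was at 212, 65 and 237 CPM against 49.1, 4.02 and 13.9 CPM and was not called (log2 fold change 2.94 ± 1.35, adjusted p = 0.165). DESeq2 called S100a9 (adjusted p = 0.00395), and the fit on the compared libraries only called both S100a9 (0.0152) and Lcn2 (0.0443).

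Primary granule genes, which are transcribed in the bone marrow, were near 0. Elane, neutrophil elastase, had no count in any of the 6 libraries, Mpo, myeloperoxidase, was at 0.0967, 3.42 and 0 CPM and 0.573, 0 and 0 CPM, and Ctsg was at 0.218, 0 and 0.451 CPM with no count in microglia. Prtn3, proteinase 3, was at 1.52, 0.579 and 4.64 CPM in infiltrating cells with no count in any microglial library. Its mean was 19.8-fold over a floor of 3 counts in each microglial library. Of secondary granule genes, Camp, Ngp and Ltf were low, overlapped between groups and were not called. Others went the other way: Mmp8 was called higher, and Lcn2, though not called, was higher without overlap. The granule list, which shares Lyz2 with the monocyte list and Cybb with the oxidase list, summed to 14340, 8195 and 18390 CPM in infiltrating libraries and 1264, 287.8 and 692.3 CPM in microglia.

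**Figure D2:**
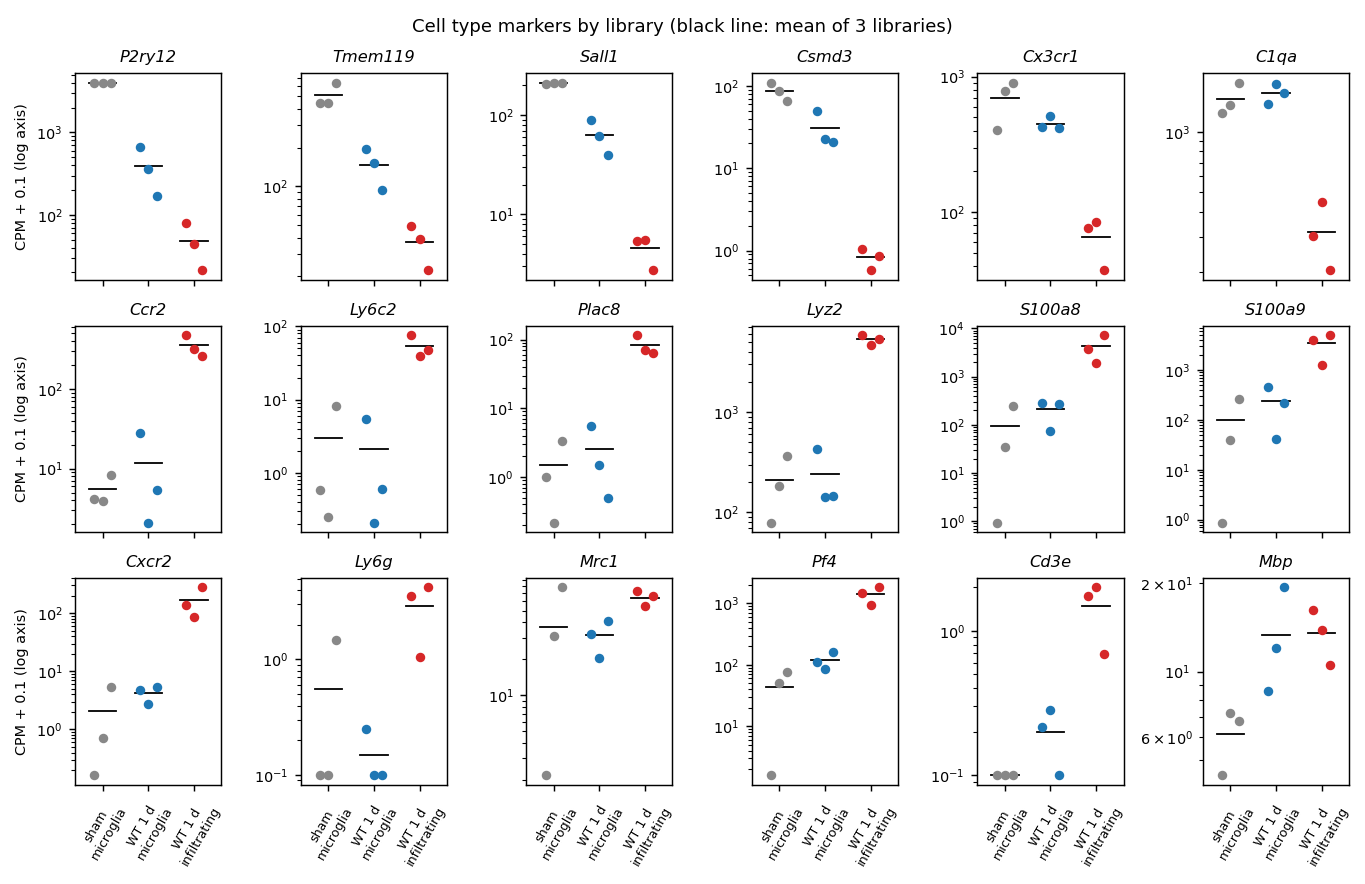
Levels of 18 identity genes in CPM (y axis, log scale, 0.1 added so that 0 can be drawn) in each library of sham microglia, WT microglia and WT infiltrating myeloid cells 1 d after injury, with lines at the group means. P2ry12 and Sall1 fall from sham to injured microglia and again to infiltrating cells, Ccr2, Ly6c2 and Cxcr2 are high in the infiltrating cells, and Mrc1, Cd3e and Mbp, markers of other cell types, were not called in the fit over all libraries.

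Border-associated macrophages of the meninges and perivascular spaces also carry high CD45. Of 14 genes of these cells, 5 were called higher and 1 lower, with a median log2 fold change of 0.91. Their defining markers were not called over all libraries: the mannose receptor gene Mrc1 was at 72.4, 54.8 and 65.5 CPM against 32, 20.3 and 41.3 CPM (log2 fold change 1.04 ± 0.64, adjusted p = 0.305), and the hyaluronan receptor Lyve1 at 3.36, 4.69 and 2.25 CPM against 7.48, 2.82 and 4.18 CPM (log2 fold change -0.49 ± 0.97, adjusted p = 0.843). Mrc1 did not overlap between groups and was called in the fit on the compared libraries only (adjusted p = 0.0243), whereas Lyve1, Cd163 and Folr2 overlapped. The 5 that were higher were Ms4a7 (log2 fold change 4.37 ± 0.77), the platelet factor gene Pf4 (3.55 ± 0.77), F13a1, Clec10a and Ccl24, which monocytes and their descendants also express. The call of Clec10a was lost without microglial replicate 2 or 3 (adjusted p = 0.0581 and 0.0652), over a range of 3.11 to 5.47 on the log2 scale. Stab1, a scavenger receptor, was lower at 64.5, 76.8 and 82.6 CPM against 119, 149 and 206 CPM (log2 fold change -1.08 ± 0.31, adjusted p = 0.0202), a call lost without infiltrating replicate 1 or 2 (adjusted p = 0.0806 and 0.0585) or microglial replicate 3 (0.126).

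Of the lymphoid lists, that of T and NK cells was low. The B cell list summed to 57.69, 35.9 and 26.91 CPM in infiltrating cells and 128.1, 103 and 64.13 CPM in microglia. In sham microglia it summed to 186.8, 242 and 254.7 CPM. The 14 T and NK cell genes summed to 27.69, 22.58 and 24.75 CPM in infiltrating cells and 2.328, 1.737 and 0.8978 CPM in microglia, with 5 of them at 0 in every microglial library. Klrk1, the activating receptor NKG2D, was at 15.6, 13.2 and 15.9 CPM against 0.687, 0.724 and 0 CPM (log2 fold change 4.97 ± 0.79, adjusted p = 0.000166) and made up most of that sum. Klrd1, an NK cell receptor gene outside the list, had a mean of 24.39 CPM against 0.673 CPM (log2 fold change 5.18 ± 0.64, adjusted p = 1.09e-05). Nkg7, a granule membrane protein of cytotoxic cells, was at 1.52, 1.32 and 0 CPM with no count in microglia. Its mean was 8.35-fold over the floor, although the third infiltrating library held no count. Its call was lost without infiltrating replicate 1 or 2 (adjusted p = 0.0924 and 0.0813) or any microglial replicate (0.1, 0.101 and 0.0952), by DESeq2 (0.363), with the compared libraries only (0.0801) and with a replicate block (0.0632). Cd3e stood at 1.64, 1.9 and 0.586 CPM against 0.115, 0.181 and 0 CPM and was not called by edgeR (log2 fold change 3.74 ± 1.5, adjusted p = 0.115), though DESeq2 called it (adjusted p = 0.0437). Of 7 B cell genes none was higher and Ighm, the IgM heavy chain, was lower (-1.41 ± 0.27), while Cd79a stood at 1.45, 0.526 and 1.35 CPM and 0.115, 0.0362 and 0 CPM and was not called (log2 fold change 4.36 ± 1.52, adjusted p = 0.0585), though it was called by DESeq2 (0.00425), with filterByExpr (0.0329) and with protein-coding genes only (0.0276).

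Dendritic cell genes gave 5 higher and 1 lower of 10. Flt3, the growth factor receptor of conventional dendritic cells, was at 4.23, 7 and 2.98 CPM against 0.344, 0.543 and 0.117 CPM (log2 fold change 3.80 ± 0.75, adjusted p = 0.0013), and Cd209a (4.04 ± 0.95), Ccr7 (3.08 ± 0.79), Zbtb46 (2.68 ± 0.52) and Cd24a (4.31 ± 0.57) were also higher. Naaa, a lipid amidase, was lower (-1.70 ± 0.28). Xcr1 and Clec9a, of cross-presenting dendritic cells, stayed at or under 1.38 CPM in all 6 libraries, and Clec9a was called without infiltrating replicate 2. Of 8 neuronal genes none was called, though 1 was lower without infiltrating replicate 1, Snap25 was at 1.55, 0.684 and 2.34 CPM and 2.44, 2.89 and 3.04 CPM, and the list summed to 2.709, 1.737 and 3.2 CPM in infiltrating cells and 3.435, 5.717 and 4.06 CPM in microglia. Of 8 oligodendrocyte genes none was called, with 1 lower without microglial replicate 3, and Mbp, myelin basic protein, overlapped at 16.1, 13.7 and 10.5 CPM and 8.47, 11.9 and 19.3 CPM. Astrocyte genes gave 1 higher and 1 lower of 8 (Aldoc 1.54 and Slc1a3 -2.40), with Gfap at 0.871, 1.32 and 0.406 CPM and 0.84, 3.33 and 1.76 CPM, and 8 endothelial genes gave 1 higher, Kdr (2.59), with Cldn5 at 0.484, 0.105 and 0.135 CPM and no count in microglia. Of 7 platelet genes Ppbp and Pf4 were higher and Gp9 (-3.25) and Itgb3 lower, while Itga2b, Gp1bb and Treml1 stayed under 1 CPM. The 6 red cell genes were not called and summed to 34.59, 0.2106 and 10.68 CPM and 35.61, 0.1809 and 9.564 CPM.

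Of 26 transcription factors of cell identity, 7 were called higher, 5 lower and 14 were not called. Alongside Sall1, the related Sall3 (-3.55 ± 0.39), Mef2c (-2.02 ± 0.14), the clock-linked repressor Bhlhe41 (-2.13 ± 0.27) and the hematopoietic factor Tal1 (-2.93 ± 0.62) were lower. Runx3, a factor of lymphoid cells and some monocyte descendants, was at 57.9, 58.6 and 48 CPM against 2.6, 0.615 and 1.41 CPM (log2 fold change 5.15 ± 0.54, adjusted p = 2e-06). Nr4a1, an early-response nuclear receptor that non-classical monocytes need, was at 117, 87.5 and 94.8 CPM against 9.5, 6.12 and 7.46 CPM (log2 fold change 3.69 ± 0.52, adjusted p = 4.5e-05). Neither gene overlapped between groups.

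Klf4 (3.11 ± 0.54), needed for monocyte differentiation, Cebpb (2.51 ± 0.28), a driver of emergency myelopoiesis, Egr2 (2.93 ± 0.69) and Tfec (3.08 ± 0.63) were also higher. Cebpe, a granulocyte factor, was at 0.774, 1.37 and 1.67 CPM with no count in microglia, a mean 11.2-fold over the floor. Among factors shared by all macrophages, Spi1, Irf8 and Cebpa were not called. Spi1, which encodes PU.1, was at 191, 214 and 207 CPM against 105, 129.6 and 122 CPM (log2 fold change 0.78 ± 0.14) and stayed under the required fold with groups that did not overlap, as did Irf8 (-0.75 ± 0.21). Cebpa overlapped between groups.

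Cytokine genes were higher in the recruited cells in part only. Of 20, 7 were called higher and none lower, with a median log2 fold change of 1.62. Il1b (chr2:129364570-129371139), interleukin-1β, was at 2467, 1312 and 1951 CPM in infiltrating cells, 144, 33.2 and 66.5 CPM in injured microglia and 6.6, 6.8 and 18.2 CPM in sham microglia (log2 fold change 4.56 ± 0.62, adjusted p = 3.25e-05). Il1rn, the soluble antagonist of the IL-1 receptor, was at 831, 637 and 1449.7 CPM against 151, 152 and 282 CPM (log2 fold change 2.32 ± 0.50, adjusted p = 0.00283). The groups did not overlap in either gene. The second infiltrating library, lowest of its group in the summed neutrophil granule genes, was also the lowest in Il1b, Il1rn, Cxcl2 and Cxcl3. It was lowest as well in the summed inflammatory monocyte genes (12560, 10320 and 11210 CPM in libraries 1, 2 and 3) and in Tnf, Ccl2 and Ptgs2. Fabp5 and Hmox1 were instead highest in it. The granule sum includes Lyz2 and S100a8, which monocytes also express. The part of neutrophil RNA in these genes was not tested.

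Tnf, tumor necrosis factor, overlapped between the cells, at 109, 35.1 and 74.9 CPM and 66.2, 51.1 and 46.2 CPM against 4.62, 1.78 and 1.06 CPM in sham (log2 fold change 0.42 ± 0.44, adjusted p = 0.584). Il1a overlapped likewise (0.63 ± 0.53), and Il6 and Il10 stayed under 5 CPM in all 6 libraries and were not called. Osm, oncostatin M, an IL-6 family cytokine of monocytes and neutrophils, was at 187, 117 and 118 CPM against 19.8, 13.1 and 12.6 CPM (log2 fold change 3.22 ± 0.50, adjusted p = 0.000123). Vegfa, a vessel growth and permeability factor, was at 121, 132 and 134 CPM against 5.27, 3.22 and 3.9 CPM (log2 fold change 4.97 ± 0.57, adjusted p = 5.37e-06). Areg, an EGF receptor ligand, was at 12.5, 18.6 and 18.4 CPM against 0.0382, 0.0362 and 0.039 CPM, the latter under the floor of 3 counts. It held 1279 estimated counts in all against 3, a ratio of 411 with a counting interval of 140.1 to 1993. Tnfsf14 (4.50 ± 0.78) was higher as well, and so was Lif (4.96 ± 1.58), whose value ranged from 4.41 to 10.5 over the libraries left out and whose call was lost without infiltrating replicate 1, 2 or 3 (adjusted p = 0.104, 0.0674 and 0.0576) or microglial replicate 2 or 3 (0.115 and 0.112).

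Chemokines divided by gene. Of 12 CC ligands 7 were called higher and 1 lower (median log2 fold change 1.61). Ccl2, the main monocyte attractant, was at 914, 639 and 833 CPM in infiltrating cells and 175, 250.3 and 276 CPM in microglia (log2 fold change 1.77 ± 0.41, adjusted p = 0.00528), and Ccl7 at 459, 326 and 456 CPM against 63.4, 50.8 and 100.4 CPM (log2 fold change 2.53 ± 0.71, adjusted p = 0.0189). Ccl12 (chr11:82101845-82103400), another CCR2 ligand encoded beside them, ran the other way at 393, 415 and 321 CPM against 2388, 2749.6 and 3005 CPM in injured microglia and 62, 63.9 and 80.4 CPM in sham (log2 fold change -2.85 ± 0.35, adjusted p = 1.15e-05). Every microglial library was above every infiltrating library for Ccl12, and the reverse held for Ccl2 and Ccl7. The call of Ccl7 was lost without microglial replicate 1 or 2 (adjusted p = 0.0671 and 0.0793). Ccl17 (3.99 ± 0.61) and Ccl22 (2.46 ± 0.56), ligands of CCR4, and Ccl6, Ccl9 and Ccl24 were higher in infiltrating cells.

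The inflammatory chemokine genes Ccl3 and Ccl4 were not called. Ccl3 was at 931, 283 and 601 CPM and 609, 621 and 824 CPM (log2 fold change -0.18 ± 0.39, adjusted p = 0.874), Ccl4 at 505, 134 and 207 CPM and 311, 416 and 428 CPM (log2 fold change -0.45 ± 0.46, adjusted p = 0.566), and both overlapped. Of 13 CXC ligands 6 were called higher and none lower, which fell to 4 without infiltrating replicate 1 or microglial replicate 2 or 3. Cxcl2, a neutrophil attractant, was at 4516, 1361 and 2989 CPM against 716, 54.7 and 228 CPM (log2 fold change 3.15 ± 0.91, adjusted p = 0.0213), with a call lost without infiltrating replicate 1 (adjusted p = 0.0688) or microglial replicate 2 (0.0758) or 3 (0.0838). Cxcl3, a second CXCR2 ligand, was at 515, 197 and 694 CPM against 41.7, 4.96 and 15.6 CPM (log2 fold change 4.50 ± 0.94, adjusted p = 0.00214), and Ppbp (4.05 ± 0.92), Pf4, Cxcl9 (2.82 ± 0.95) and Cxcl14 (2.81 ± 0.70) were higher. Cxcl9, which ranged from 2.27 to 4.48 over the libraries left out, lost its call without infiltrating replicate 1, 2 or 3 (adjusted p = 0.103, 0.0623 and 0.0897) or microglial replicate 2 or 3 (0.134 and 0.148). Cxcl10, an interferon-induced ligand of CXCR3, overlapped at 95.9, 62.2 and 79.2 CPM and 58.3, 67.7 and 88.6 CPM.

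Receptor genes were for the most part higher in the recruited cells. Of 15 chemokine receptors 9 were called higher and 1, Cx3cr1, lower (median log2 fold change 3.16). Cxcr4, which holds leukocytes in bone marrow and is regained in tissue, was at 233, 177 and 221 CPM against 8.82, 1.56 and 5.82 CPM (log2 fold change 5.29 ± 0.85, adjusted p = 0.000186). Ccr1, a receptor for CCL3, CCL7 and CCL9, was at 129, 85.1 and 117 CPM against 12.9, 10.5 and 13.7 CPM (log2 fold change 3.16 ± 0.35, adjusted p = 2.88e-06), and Ccrl2, which binds chemerin, at 159, 127 and 205 CPM against 24.7, 13.2 and 14.4 CPM (log2 fold change 3.23 ± 0.40, adjusted p = 1.22e-05). None of these overlapped. Ccr3 (2.74 ± 0.70), Ccr7, Ackr3 (3.88 ± 1.10) and Cxcr3 were higher at lower levels, Cxcr3 with 89 counts against 3 (ratio 28.6, counting interval 9.46 to 141). The call of Cxcr3 was lost without infiltrating replicate 1 or 2 (adjusted p = 0.0681 and 0.101) or microglial replicate 1, 2 or 3 (0.0656, 0.114 and 0.122). Ackr3 lost its call without infiltrating replicate 2 (adjusted p = 0.0699) or microglial replicate 2 or 3 (0.0799 and 0.0561), over a range of 3.28 to 6.98.

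Among 21 integrin and adhesion genes, 9 were higher and 2 lower. Itgam and Ptprc encode CD11b and CD45, on which the cells were sorted, so their values describe the gates: Itgam was at 375, 358 and 455 CPM and 379, 433 and 392 CPM and Ptprc at 231, 248 and 233 CPM and 177, 169 and 167 CPM. Itgal, the αL chain of LFA-1 by which leukocytes hold to endothelium, was at 23.4, 15.9 and 24.2 CPM against 1.37, 0.796 and 0.703 CPM (log2 fold change 4.46 ± 0.43, adjusted p = 8.85e-07). The homing genes Itga4 (3.09 ± 0.44) and Itgb7 (4.66 ± 0.68), the partner chain Itgb2 (1.09 ± 0.14), Itgax (3.20 ± 0.37) and Alcam (3.36 ± 0.35) were also higher. The laminin-binding chain Itga6 was lower, at 86, 90 and 57 CPM against 311, 383 and 411 CPM (log2 fold change -2.25 ± 0.18, adjusted p = 1.71e-07), with no overlap, as was Itgb3 (-2.28 ± 0.37). Itgax encodes CD11c, which with the β2 chain also binds fibrinogen.

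Genes of the phagocyte NADPH oxidase, which makes superoxide, gave 4 higher and none lower of 8, although 1 was lower without infiltrating replicate 2. The membrane subunits Cybb, at 55.2, 48.7 and 43.1 CPM against 15.5, 18.7 and 23.6 CPM and 2.68, 4.82 and 9.63 CPM in sham (log2 fold change 1.35 ± 0.32, adjusted p = 0.00628), and Cyba (1.04 ± 0.18) and the cytosolic subunit Ncf4 (1.27 ± 0.28) were higher by small amounts. Groups did not overlap in these genes, and Cyba fell under the required fold without microglial replicate 1 (log2 fold change 0.94). The organizer Ncf1 (0.15 ± 0.19) and the GTPase Rac2 (0.26 ± 0.20) overlapped.

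Prostaglandin and leukotriene genes split evenly, with 5 of 15 higher and 5 lower. Ptgs2, the inducible cyclooxygenase COX-2, was at 239.8, 86.3 and 136 CPM in infiltrating cells, 27.6, 32.2 and 48.5 CPM in injured microglia and 0.0956, 0.152 and 0.302 CPM in sham (log2 fold change 2.09 ± 0.40, adjusted p = 0.000955). Ptgs1, the constitutive form, was lower at 37.8, 33.2 and 21.7 CPM against 279.9, 192 and 131 CPM (log2 fold change -2.70 ± 0.29, adjusted p = 2.45e-06). The groups did not overlap for either, in opposite directions. The downstream prostaglandin and thromboxane synthases Hpgds (-2.71 ± 0.25) and Tbxas1 (-1.25 ± 0.22) were lower with Ptgs1, as was the degrading enzyme Hpgd (-2.07 ± 0.38). Of the leukotriene genes, the synthase Ltc4s was lower (-2.38 ± 0.38). Alox5ap, which presents arachidonic acid to 5-lipoxygenase, was at 891, 722 and 835 CPM against 219, 154 and 164 CPM (log2 fold change 2.19 ± 0.17, adjusted p = 9.11e-08), and Alox15 and the PGE2 receptors Ptger2 and Ptger4 were higher. The higher count was 3 without infiltrating replicate 1. Ptger4 fell under the required fold without that library (log2 fold change 0.82) or microglial replicate 1 (0.92). Ptger2 lost its call without infiltrating replicate 1 or 3 (adjusted p = 0.0624 and 0.0923) or microglial replicate 2 or 3 (0.115 and 0.111).

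Complement split as well, with 5 of 17 higher and 4 lower. The C1q chain genes were lower, C1qa at 303, 447 and 203 CPM against 1384, 1743 and 1559 CPM (log2 fold change -2.30 ± 0.26, adjusted p = 4.88e-06), with C1qb (-2.09 ± 0.22) and C1qc (-2.28 ± 0.23) beside it. Alternative pathway genes were higher. Properdin, Cfp, was at 144, 138 and 147 CPM against 8.44, 1.81 and 4.72 CPM (log2 fold change 4.84 ± 0.57, adjusted p = 6.35e-06), the central component C3 at 43.3, 40.7 and 91.9 CPM against 4.66, 0.868 and 4.14 CPM (log2 fold change 4.19 ± 0.81, adjusted p = 0.00114), and factor B, Cfb, also rose (4.31 ± 0.92). In none of these did the groups overlap. The anaphylatoxin receptors C3ar1 and C5ar1 overlapped (log2 fold changes -0.75 ± 0.25 and -0.26 ± 0.31), with C3ar1 called lower without microglial replicate 1.

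Of 18 coagulation and fibrinolysis genes, 12 were called higher and 2 lower, with a median log2 fold change of 3.07. The list leaves out Pros1, called lower above. It shares F10 with the monocyte list and F13a1 with the border-associated macrophage list. In 14 the groups did not overlap in the higher direction, against 13.5% of all genes. Thbs1, thrombospondin-1, an activator of latent TGF-β, was at 1069, 987 and 1987 CPM against 54.7, 17.8 and 55.2 CPM (log2 fold change 4.98 ± 0.59, adjusted p = 6.77e-06). F13a1, the transglutaminase that cross-links fibrin, was at 171, 182 and 191 CPM against 15.8, 4.27 and 4.72 CPM (log2 fold change 4.46 ± 0.82, adjusted p = 0.000701). F7, which starts the extrinsic pathway with tissue factor, was at 9.67, 13.2 and 17.1 CPM against 0.229, 0 and 0 CPM (log2 fold change 7.38 ± 0.94, adjusted p = 5.26e-05), a value of 6.85 to 11.7 over the libraries left out, with microglial counts at or near 0. Tissue factor itself, F3, was at 9.87, 0.79 and 2.21 CPM and 1.83, 0.615 and 1.37 CPM, overlapped and was not called. F5 (4.72 ± 0.95) and F10 were higher too.

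The surface anticoagulant Thbd, thrombomodulin, was at 41.6, 44.2 and 77.3 CPM against 2.29, 0.941 and 3.08 CPM (log2 fold change 4.69 ± 0.73, adjusted p = 0.000129), whereas Tfpi, the tissue factor pathway inhibitor, was lower at 5.39, 9.84 and 3.61 CPM against 33.4, 28.6 and 29.4 CPM (log2 fold change -2.28 ± 0.43, adjusted p = 0.000829). On the fibrinolytic side, the urokinase receptor Plaur (2.20 ± 0.35), urokinase Plau (1.13 ± 0.33), and the annexin A2 complex that concentrates plasminogen on the cell surface, Anxa2 (3.93 ± 0.43) and S100a10 (4.92 ± 0.49), were higher. Serpine2, protease nexin-1, was lower at 5.39, 9 and 3.83 CPM against 77, 70.6 and 56.8 CPM (log2 fold change -3.49 ± 0.57, adjusted p = 0.000223). Serpinb2, an intracellular inhibitor of urokinase, was higher (log2 fold change 5.08 ± 1.38, adjusted p = 0.0192), a call lost without infiltrating replicate 3 (adjusted p = 0.0649) or microglial replicate 2 (0.0742). Plau lost its call without infiltrating replicate 1 (adjusted p = 0.14) or microglial replicate 1, 2 or 3 (0.0686, 0.0533 and 0.064). Of 16 matrix protease genes 6 were higher and 2 lower, among them the inhibitor Timp1 at 56.6, 63.7 and 70.9 CPM against 2.33, 0.76 and 2.58 CPM (log2 fold change 5.08 ± 0.60, adjusted p = 1.28e-05), and, lower, Adamts1 (-3.47 ± 0.63) and Mmp2 (-2.82 ± 0.60). The call of Mmp2 was lost with the compared libraries only (adjusted p = 0.0552), and its value ranged from -4.15 to -2.32 over the libraries left out. Timp2 stayed under the required fold (-0.75 ± 0.19).

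Genes that present antigen to CD4+ T cells were higher in the recruited cells. Of 10 MHC class II genes 9 were called higher and none lower (median log2 fold change 3.81). H2-Ab1 was at 1535, 1324 and 955 CPM in infiltrating cells, 41.6, 14.1 and 12 CPM in injured microglia and 22.2, 33 and 54 CPM in sham (log2 fold change 5.81 ± 0.57, adjusted p = 8.76e-07). The invariant chain Cd74 was at 1599.8, 1570.2 and 1160.02 CPM against 79.9, 71.3 and 36.7 CPM (log2 fold change 4.53 ± 0.38, adjusted p = 2.17e-07), and Ciita, the master regulator of these genes, at 10.8, 6.74 and 5.18 CPM against 0.458, 0.0724 and 0.0781 CPM (log2 fold change 5.2 ± 0.91, adjusted p = 0.000455). All infiltrating libraries were above all microglial and sham libraries in these 3 genes, and H2-Aa was also higher (5.57 ± 0.64). Of the costimulators Cd80 (3.10 ± 0.46) and Cd40 (2.81 ± 0.83) were higher, and Cd86 overlapped at 65.9, 74.1 and 64.9 CPM and 66, 66.4 and 73 CPM. The call of Cd40 was lost without infiltrating replicate 2 (adjusted p = 0.0899) or microglial replicate 1 or 3 (0.0828 and 0.0793).

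Of 12 genes of arginine and itaconate metabolism and alternative activation, 6 were called higher and none lower. Arg1 (chr10:24915221-24927484), arginase 1, was at 1988, 1506 and 2449 CPM in infiltrating cells, 42.3, 5.61 and 20.6 CPM in microglia and 0.606, 0.569 and 1.13 CPM in sham (log2 fold change 6.44 ± 0.77, adjusted p = 8.58e-06). Nos2, the inducible nitric oxide synthase that uses the same substrate, stayed low at 0.871, 0.526 and 3.65 CPM against 0.191, 0 and 0.039 CPM and was not called (log2 fold change 4.39 ± 1.54, adjusted p = 0.0677), although it was called by DESeq2 (0.0242), with filterByExpr (0.0436) and with protein-coding genes only (0.0272). The arginine handling genes Arg2 (5.07 ± 0.82), Ass1 (5.21 ± 0.49) and Slc7a2 (5.39 ± 0.98) and the chitinase-like gene Chil3 (4.88 ± 1.29) were higher with Arg1, Chil3 with a call lost without microglial replicate 2 or 3 (adjusted p = 0.0528 and 0.0574). Acod1, which makes itaconate, was at 137, 24.2 and 86.4 CPM against 24.4, 2.68 and 14.8 CPM (log2 fold change 2.57 ± 0.68, adjusted p = 0.0122), with the lowest infiltrating library under the highest microglial library and a call lost without infiltrating replicate 1 (adjusted p = 0.0711). Retnla was at 0.75, 0 and 0.135 CPM with no count in microglia.

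Pattern sensing did not divide in a common direction. Of 15 Toll-like receptor genes 2 were higher and 3 lower, counts that ranged from 1 higher without infiltrating replicate 3 to 4 higher without replicate 2. Tlr8, an endosomal RNA sensor, was at 71.2, 63.8 and 74.2 CPM against 4.54, 1.77 and 2.19 CPM (log2 fold change 4.62 ± 0.85, adjusted p = 0.000652). Its neighbor Tlr7 was lower at 70.9, 95.8 and 79.6 CPM against 191, 328 and 305 CPM (log2 fold change -1.74 ± 0.21, adjusted p = 9.57e-06), and so was Tlr3 (-2.41 ± 0.30). The groups did not overlap for these RNA sensors, while the lipopolysaccharide co-receptor Cd14 overlapped.

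Interferon-stimulated genes were higher in 9 of 14 and lower in none, with 6 higher without infiltrating replicate 3 or microglial replicate 1 or 2. In 13 of 14 the groups did not overlap in the higher direction, against 13.5% of all genes. Isg15, a ubiquitin-like modifier, was at 125, 89 and 109 CPM against 13.6, 19.9 and 21.4 CPM (log2 fold change 2.56 ± 0.59, adjusted p = 0.00467), Ifitm3, which blocks viral entry, at 2259.6, 1673 and 1703 CPM against 179, 132 and 213 CPM (log2 fold change 3.43 ± 0.53, adjusted p = 0.000141), and Irf7 at 38.4, 32.9 and 29.3 CPM against 3.97, 2.97 and 5.86 CPM (log2 fold change 2.97 ± 0.52, adjusted p = 0.000411). Glycolysis and hypoxia genes were higher in 9 of 17, with 6 without microglial replicate 1, and lower in none, except for 1 without infiltrating replicate 3. Hif1a, the oxygen-regulated factor, was at 184, 166 and 200.1 CPM against 43.9, 49.4 and 53.5 CPM (log2 fold change 1.90 ± 0.18, adjusted p = 5.82e-07), and Egln3, which hydroxylates it, at 19.3, 11.9 and 29 CPM against 2.63, 0.688 and 4.22 CPM (log2 fold change 3.0 ± 0.67, adjusted p = 0.00361). The glucose transporter gene Slc2a1 (1.15 ± 0.25) fell under the required fold without infiltrating replicate 3 (log2 fold change 0.99) or microglial replicate 1 (0.97), and Aldoa without microglial replicate 1 (0.90). Eno1 (1.47 ± 0.21), Aldoa (1.16 ± 0.24) and Pfkp (3.38 ± 0.46) were called, lactate dehydrogenase Ldha stayed under the required fold (0.76 ± 0.23), and the pyruvate kinase Pkm overlapped (0.45 ± 0.30).

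Of 14 heme and iron genes 5 were higher and 1 lower. Hmox1, heme oxygenase-1, which breaks down heme, was at 502, 793 and 707 CPM in infiltrating cells, 103, 78.7 and 169 CPM in injured microglia and 12.1, 13.2 and 17.8 CPM in sham (log2 fold change 2.51 ± 0.29, adjusted p = 6.36e-06). The ferritin chains Fth1 (1.58 ± 0.30) and Ftl1 (1.61 ± 0.26), whose processed copies share reads, and Hp, haptoglobin (4.92 ± 1.12), were higher. Slc11a2, an iron importer, was lower (-1.83 ± 0.43), and the exporter Slc40a1 overlapped between groups.

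**Figure D3:**
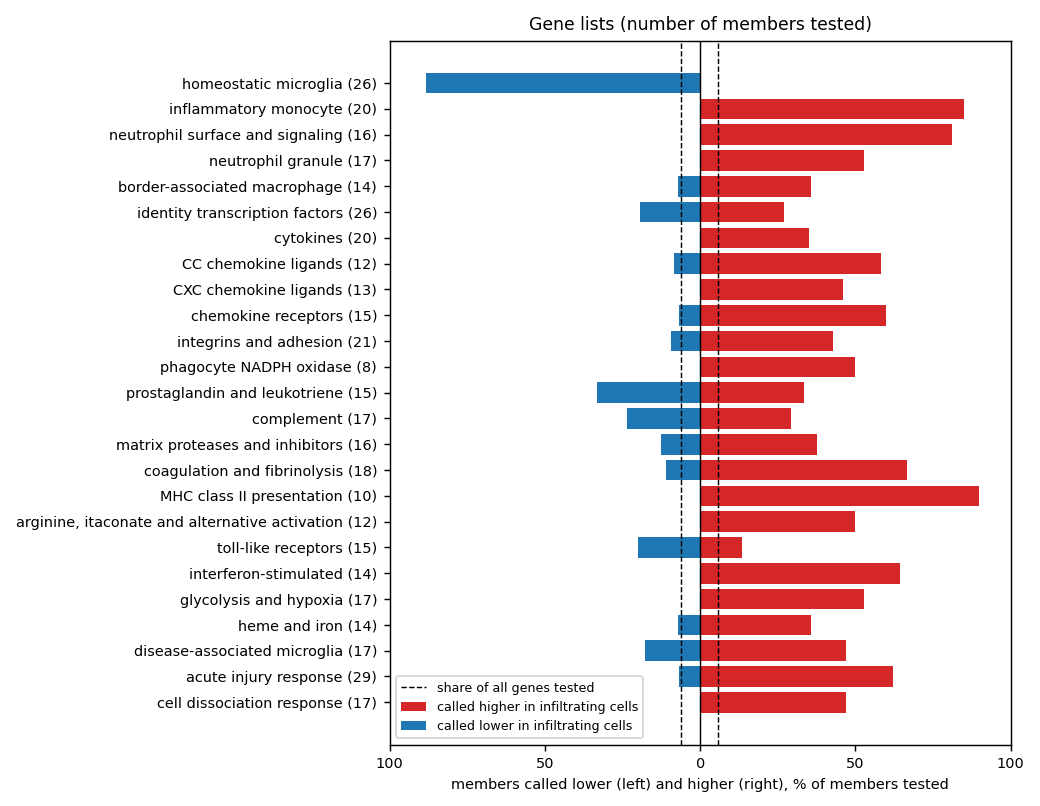
Percent of the tested members of 25 gene lists called lower (bars to the left) and higher (bars to the right) in WT infiltrating myeloid cells than in WT microglia, with dashed lines at the share of all genes, 6.31% lower and 5.61% higher. Homeostatic microglial genes lie to the left, monocyte, neutrophil, coagulation and MHC class II genes to the right, and prostaglandin and complement genes on both sides.

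Genes raised by acute injury were then read across sham microglia, injured microglia and infiltrating cells. Of 29 genes of an acute injury list 18 were called higher in infiltrating cells and 2 lower, with a median log2 fold change of 2.03. Cdkn1a, a cell cycle inhibitor, was at 2882, 2794 and 3589 CPM in infiltrating cells, 542, 747 and 979 CPM in injured microglia and 37.8, 33.3 and 45.4 CPM in sham (log2 fold change 2.03 ± 0.36, adjusted p = 0.00054). Lgals3, galectin-3, was at 1002, 1325 and 1213 CPM, 65.8, 89.5 and 204 CPM and 1.12, 4.4 and 6.44 CPM in the same order (log2 fold change 3.30 ± 0.45, adjusted p = 3.79e-05). Cd44, the hyaluronan receptor, was at 821, 709 and 1202 CPM against 84.9, 99.3 and 172 CPM (log2 fold change 2.94 ± 0.40, adjusted p = 3.41e-05). For each, sham was lowest, injured microglia were in between and infiltrating cells highest, without overlap.

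Slc39a14, a zinc and iron importer, was higher in the resident cells, at 28.9, 25.9 and 28.2 CPM against 69.1, 71.9 and 70.5 CPM and 3.41, 4.78 and 5.73 CPM in sham (log2 fold change -1.35 ± 0.21, adjusted p = 0.000117), as was the unnamed gene AI506816 (-2.06 ± 0.21). Tspo, the mitochondrial protein imaged as a marker of neuroinflammation, was higher in infiltrating cells (1.54 ± 0.19). The members that were not called included Socs3, a brake on cytokine signaling, at 70.3, 47.6 and 57.1 CPM and 53.7, 53.1 and 66 CPM (log2 fold change 0.02 ± 0.48, adjusted p = 1), Cd14, at 629, 642 and 1020.05 CPM and 391, 1028 and 1291 CPM (log2 fold change -0.24 ± 0.43, adjusted p = 0.811), and the scavenger receptor Msr1, at 545, 587 and 523 CPM and 272, 436 and 607 CPM against 1.59, 3.27 and 9.88 CPM in sham (log2 fold change 0.33 ± 0.43, adjusted p = 0.686). These 3 overlapped between cell types.

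Genes that rise during cell isolation overlap with the early injury response and moved with it. Of 17 such genes 8 were called higher in infiltrating cells and none lower, and they summed to 5499, 3646 and 3312 CPM in infiltrating cells, 1491, 1672 and 1837 CPM in injured microglia and 1791, 409.6 and 575.8 CPM in sham. Fos, an AP-1 subunit, was at 466, 285 and 246 CPM against 32, 39.8 and 46.5 CPM, with 98.5, 4.71 and 8.95 CPM in sham (log2 fold change 3.07 ± 0.85, adjusted p = 0.0163), and lost its call without microglial replicate 1 or 2 (adjusted p = 0.0662 and 0.0566). Dusp1 (2.88 ± 0.63), Atf3 (2.51 ± 0.40), Junb (2.07 ± 0.41) and Ier3 (2.82 ± 0.49) were higher as well, as was Fosb (4.03 ± 0.87), whereas the heat shock genes Hspa1a, Hspa1b, Hsp90aa1 and Dnajb1 overlapped. The part of the isolation in these genes was not tested.

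Genes known from microglia near plaques and lesions, the disease-associated signature, gave 8 higher and 3 lower of 17, with 2 lower without infiltrating replicate 3. Apoe, the lipid carrier, was at 2093, 1624 and 1044 CPM in infiltrating cells, 221, 78.5 and 47.6 CPM in injured microglia and 108, 476 and 753 CPM in sham (log2 fold change 3.78 ± 0.61, adjusted p = 0.00019). Gpnmb, a lysosomal glycoprotein, was at 88.2, 129.98 and 105 CPM against 1.26, 0.543 and 2.54 CPM (log2 fold change 6.22 ± 0.67, adjusted p = 2.45e-06), and Clec7a, the β-glucan receptor dectin-1, at 294, 281 and 351 CPM against 24.1, 23.9 and 20.3 CPM (log2 fold change 3.76 ± 0.34, adjusted p = 5.26e-07). The groups did not overlap in these 3 genes. Spp1, osteopontin, was at 1843, 1305 and 1474 CPM against 301, 398 and 520.1 CPM (log2 fold change 1.92 ± 0.50, adjusted p = 0.0116), a call lost without microglial replicate 1 (adjusted p = 0.0573).

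Other members of that signature belonged to the resident cells. Lpl, lipoprotein lipase, was at 36.6, 75.9 and 81.2 CPM in infiltrating cells, 272, 338 and 491 CPM in injured microglia and 4.49, 5.2 and 6.34 CPM in sham (log2 fold change -2.51 ± 0.53, adjusted p = 0.00222). Cst7, cystatin F, was at 8.78, 8.95 and 6.36 CPM, 29.7, 44.3 and 37.8 CPM and 4.97, 4.82 and 8.55 CPM in the same order (log2 fold change -2.21 ± 0.40, adjusted p = 0.000575), and Trem2, the lipid-sensing receptor, was also lower (-1.20 ± 0.30), though not called without infiltrating replicate 3 (adjusted p = 0.0539). Every microglial library was above every infiltrating library in all 3. Cathepsins B and D (Ctsb -0.27 ± 0.26, Ctsd 0.12 ± 0.21) and Cd9 overlapped.

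**Figure D4:**
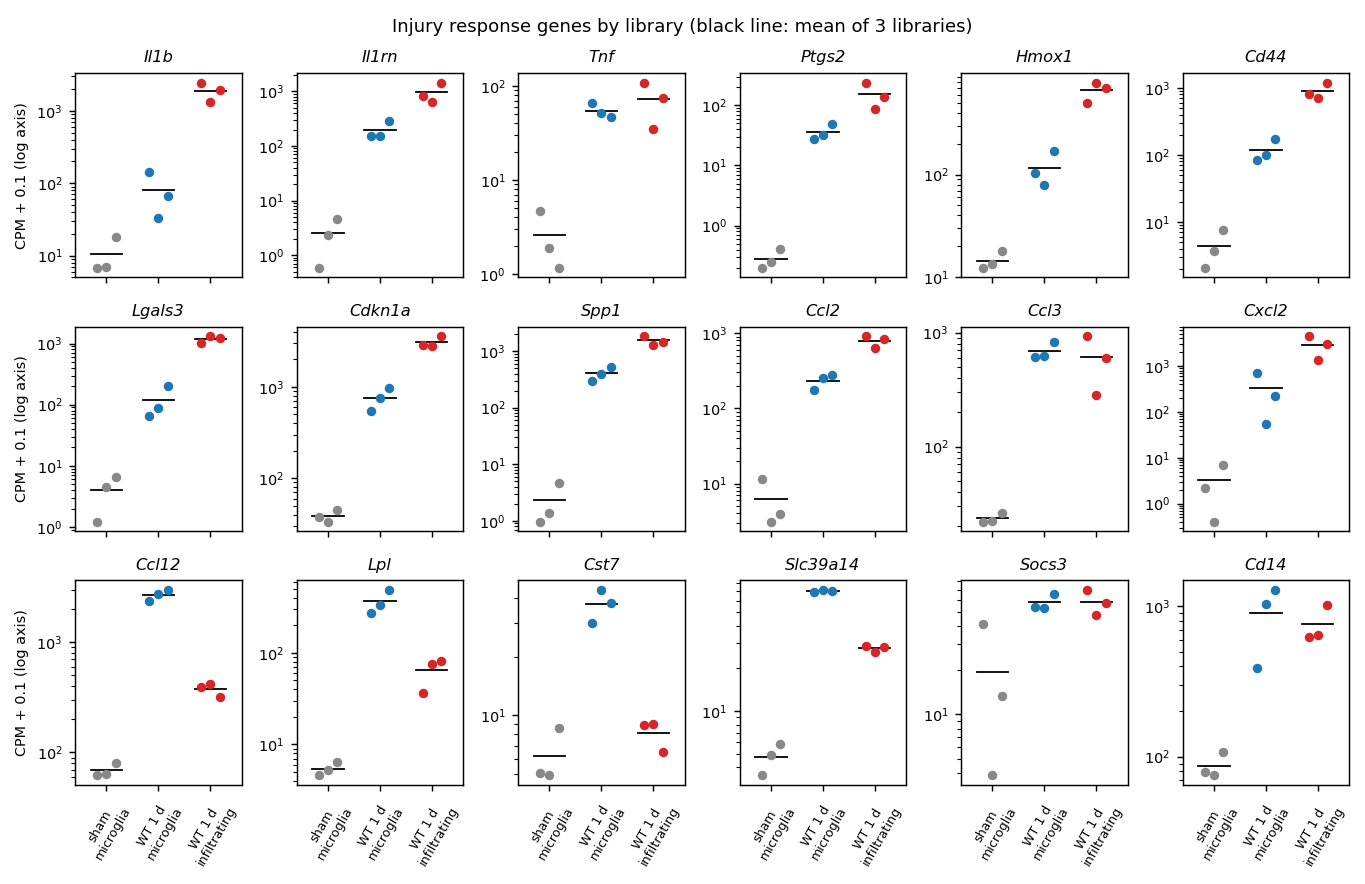
Levels of 18 injury and disease-associated genes in CPM (y axis, log scale, 0.1 added) in each library of sham microglia, WT microglia and WT infiltrating myeloid cells 1 d after injury, with lines at the group means. Il1b, Cd44 and Lgals3 step up from sham to injured microglia to infiltrating cells, Ccl12, Lpl and Slc39a14 peak in injured microglia, and Tnf, Ccl3, Socs3 and Cd14 lie at overlapping levels in the cells of injured brain.

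A wider set of injury genes was taken from libraries outside the comparison, namely the 1308 genes called higher in Fgg γ390–396A microglia 1 d after injury than in sham microglia (5.49% of genes tested) and the 274 called lower (1.15%). Of the 1308 raised genes, 989 (75.6%) were not called between WT infiltrating cells and WT microglia, 210 (16.1%) were higher in the infiltrating cells and 109 (8.33%) lower. Among the 22233 genes outside both sets, 4.84% were higher and 6.00% lower. Without infiltrating replicate 3, 70 raised genes rather than 109 were lower. The raised genes had a median log2 fold change of 0.09 between the cell types. Their medians over sham microglia were alike, at 1.81 in WT microglia and 1.93 in WT infiltrating cells. The gene set was chosen against those same sham libraries. For the infiltrating cells the value over sham holds cell type as well as injury, which cannot be told apart here.

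Of the raised genes, Cd300lf, an inhibitory receptor for phospholipids, was at 36.7, 39.3 and 51.6 CPM in infiltrating cells, 3.05, 0.832 and 1.68 CPM in WT microglia and 0.287, 0.38 and 0.402 CPM in sham (log2 fold change 4.52 ± 0.38, adjusted p = 2.52e-07), and Txn1, thioredoxin, at 413, 416 and 575 CPM, 66.3, 68 and 95.7 CPM and 14.9, 17 and 23.2 CPM (log2 fold change 2.61 ± 0.22, adjusted p = 2.17e-07). Both were lowest in sham microglia and highest in infiltrating cells, with injured microglia in between and no overlap. With Ccl12 on the other side were Gas6, a ligand of AXL and MERTK, at 9.75, 15.8 and 8.65 CPM against 72, 79 and 76.2 CPM (log2 fold change -2.73 ± 0.32, adjusted p = 6.86e-06), Gatm, the first enzyme of creatine synthesis (-2.15 ± 0.23), the TLR partner Ly86 (-2.68 ± 0.27) and the cytochrome oxidase subunit Cox6a2 (-2.74 ± 0.39). These stood higher in every injured microglial library than in every infiltrating library.

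Of the 274 lowered genes, 51 (18.6%) were higher in infiltrating cells, 58 (21.2%) lower and 165 (60.2%) not called. Those higher were led by Il7r, a cytokine receptor best known from lymphoid cells, at 48, 62.4 and 73.3 CPM against 3.86, 1.05 and 0.937 CPM and 13, 13.7 and 10.8 CPM in sham (log2 fold change 4.97 ± 0.48, adjusted p = 8.02e-07), and Mpeg1, the pore-forming perforin-2 of macrophages, at 332, 358 and 399 CPM against 119, 129 and 142 CPM (log2 fold change 1.48 ± 0.16, adjusted p = 3.36e-06), with Irf2bp2 (1.78 ± 0.18), Pnrc1 (2.20 ± 0.21) and Ubald2 (2.64 ± 0.24) beside them. Those lower were led by P2ry13 (-2.90 ± 0.27), Sall1, Lrrc3 (-3.44 ± 0.31), P3h2 (-3.17 ± 0.29) and Zfhx3 (-1.86 ± 0.17).

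The contrast was set beside the same contrast in Fgg γ390–396A mice, which shares no library with it. There 1657 genes (6.96%) were called higher in infiltrating cells and 2310 (9.70%) lower. Of the genes higher in WT, 1100 were also higher in Fgg γ390–396A, 82.3% of the WT set and 66.4% of the other, and of those lower, 994 were shared, 66.2% and 43.0%. Only 2 genes were called in opposite directions, and 2794 of the 2839 WT calls had the same sign. Over 6011 genes at 10 CPM or more in either WT group, fold changes correlated with r = 0.867, across genes that are not independent replicates. Arg1 had a log2 fold change of 6.79 ± 0.79 in Fgg γ390–396A cells, Ccr2 5.01 ± 0.95, Il1b 4.43 ± 0.61, P2ry12 -3.55 ± 0.47 and Ccl12 -2.88 ± 0.35, beside the WT values above. The difference between genotypes passed an adjusted p of 0.05 in 6 genes (0.0252% of those tested), with 1994 at an unadjusted p under 0.05, and none of the 6 was a member of the lists described here.

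**Figure D5:**
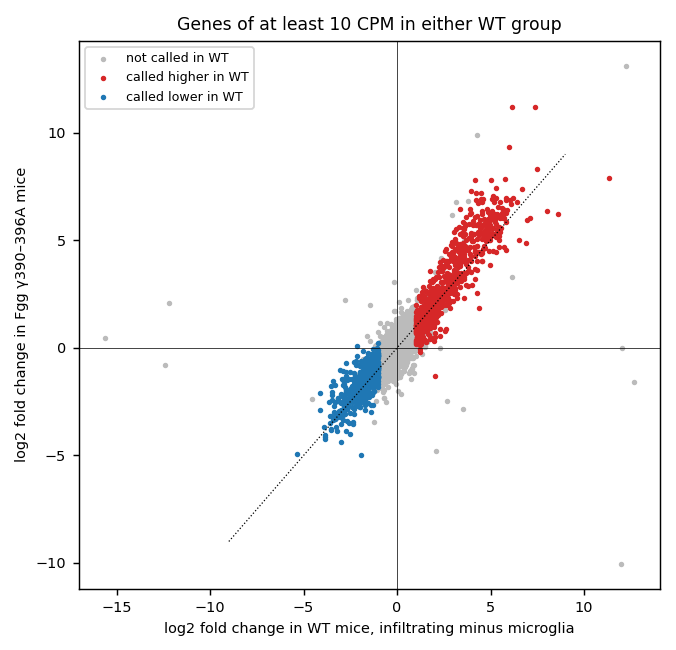
Log2 fold change of infiltrating myeloid cells over microglia 1 d after injury in WT (x axis) and Fgg γ390–396A mice (y axis), 1 point per gene at 10 CPM or more in either WT group. The points run along the diagonal (r = 0.867 over 6011 genes), with Arg1 and H2-Ab1 high and Sall1 and P2ry12 low in both genotypes.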

How the data were processed

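RNA-seq of 21 sorted-cell libraries was deposited as 1 gene table. The authors deposited estimated counts from salmon (nf-core/rnaseq, build GRCm38), divided by transcript length and rescaled to the number of mapped reads of the library. The submitters' processing notes name R 4.2.0 and DESeq2 1.36.0. Values were rounded to whole counts, genes under 5 counts over all libraries were removed, and 23815 were fitted in edgeR 4.0.16 (R 4.3.3, limma 3.58.1) with TMM normalization, 1 mean per group over all 21 libraries and 14 residual degrees of freedom. The quasi-likelihood test was used with Benjamini-Hochberg adjustment. The procedure was tested on simulated data. CPM were computed from library totals multiplied by their TMM factors. DESeq2 1.42.0, other filters, normalizations and thresholds, the compared libraries alone, a replicate block and leaving out each library were the alternatives. Gene identifiers were matched to GENCODE M21 (45143 of 45706), and promoters to RefSeq by symbol.

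The members and gene lists were chosen with earlier results of these data known. Named genes were core members of the lists, the 5 protein-coding genes of each direction that ranked first by adjusted p at 10 CPM or more with groups apart, each list's called extremes, and the 5 leading injury and genotype genes in each direction. Other list members named in the text were chosen after their values were seen, and some members are counted in their lists but not reported here by name. Replicates are separate pools of 2 brains. They differed by more than counting noise. Counting intervals and floors of 3 counts cover counting error only, at a confidence level of 95%, and not the spread between libraries. The intervals treat rounded, length-scaled values summed over the libraries of a group as if they were read counts, so they are approximate. No source used here gives the strandedness of the reads, so overlapping genes on opposite strands may share reads, as may near-identical copies such as the Ly6, ferritin and hemoglobin genes.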

Additional observations from a re-analysis of the deposited data

Results flagged for a closer look

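The cell type contrast differed between genotypes, by a test of that difference over all genes, in 5 genes named by the fixed rule, all at low levels, with the contrast higher in WT in each. Zfp286, a zinc finger gene, was at 0.363, 0.263 and 0.856 CPM in WT infiltrating cells and 1.22, 0.796 and 0.39 CPM in WT microglia, and had no count in Fgg γ390–396A infiltrating cells against 1.46, 2.64 and 1.33 CPM in their microglia, a difference in log2 fold change of 8.12 (adjusted p = 0.0343). For Dyrk4, a kinase gene, the difference was 6.99 (adjusted p = 0.0451), with 0.822, 1.26 and 0.0902 CPM and 1.91, 0.832 and 0.351 CPM in WT against 0, 0 and 0.028 CPM and 2.73, 2.21 and 2.69 CPM in Fgg γ390–396A. Mymk, the muscle fusion gene myomaker, differed by 6.98 (adjusted p = 0.0376), with WT infiltrating libraries at 1.19, 2.32 and 0.225 CPM and Fgg γ390–396A infiltrating libraries at 0, 0.0247 and 0 CPM. The processed pseudogene Gm16125 differed by 11.2 (adjusted p = 0.0376) and the noncoding gene Gm26723 by 3.31 (adjusted p = 0.0317). Because groups at or near 0 enter each of these values, their size depends on the count added in the fit and is no bound. The number of genes with such a difference ran from 0 to 71 when a library was left out, the latter without Fgg γ390–396A infiltrating replicate 3, and was 0 without WT infiltrating replicate 2, WT microglial replicate 3, or Fgg γ390–396A infiltrating replicate 2 or microglial replicate 1 or 2.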

How the results depend on the processing

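The number of genes called between WT infiltrating myeloid cells and microglia was 2839 and lay between 1937 (adjusted p under 0.01) and 3653 (DESeq2, which shared 2752 of them and gave no adjusted p to 6052 genes) over all alternatives, and between 2319 and 2609 with 1 library left out. It was 2817 with DESeq2 size factors, 3093 with edgeR's filterByExpr, 2780 with no filter beyond 1 count, 2844 without ribosomal genes, 2815 with protein-coding genes only and 2071 at a log2 fold change above 1.5. The genes called lower numbered 907 with the compared libraries only and 932 at an adjusted p under 0.01, against 1502. Injury genes were chosen anew in each fit except that on the compared libraries only, so these counts changed with the set as well as with the calls. Called injury genes (428) became 710 by DESeq2, 223 at a log2 fold change above 1.5 and 251 at an adjusted p under 0.01. Raised genes called higher (210) became 126 and 135 under the last 2 settings, and those called lower (109) 55 and 60, with 70 to 105 when a library was left out. Lowered genes called lower (58) became 186 by DESeq2, 38 with the compared libraries only, 22 at the larger fold change and 24 at the smaller adjusted p, and those called higher (51) became 130 by DESeq2, 20 and 32. The 6 genes that differed between genotypes became 137 by DESeq2, 2 with DESeq2 size factors or filterByExpr, 4 with protein-coding genes only, 0 with the compared libraries or an adjusted p under 0.01, and 0 to 71 with a library left out. Of 261 genes given values, 193 were called, 154 of them under every alternative and 39 not under all, and 16 of the 68 not called were called by some alternative. Some directions turned, none of them in a called gene. The log2 fold change of Itgam became 0.049 by DESeq2 and with its size factors, 0.045 with filterByExpr and 0.041 with the compared libraries only, that of Cd86 0.062, 0.063, 0.062 and 0.057, and that of Cd163 0.008 by DESeq2, 0.009 with filterByExpr and 0.007 with the compared libraries only. With 1 library left out, ranges through zero were -0.13 to 0.091 for Itgam, -0.029 to 0.092 for Cd86, -0.519 to 0.422 for Cd163, -0.526 to 0.002 for C5ar1, -0.629 to 0.203 for Ccl3, -0.602 to 0.157 for Cd14, -0.062 to 0.361 for Cd9, -0.49 to 0.123 for Cebpa, -0.017 to 0.373 for Cxcl10, -0.141 to 0.352 for Dnajb1, -1.066 to 0.283 for Dyrk4, -1.719 to 1.614 for Hbb-bs, -0.024 to 1.154 for Il1a, -0.215 to 0.443 for Mbp, -1.799 to 8.204 for Mpo, -0.604 to 0.067 for Selplg and -0.137 to 0.187 for Socs3. The cause of these changes was not tested. Whether replicate numbers pair the libraries was not settled: no source used here says so, and deviations of same-numbered libraries correlated at 0.138, 0.175 and 0.0301. Infiltrating replicates 1 and 2 correlated best with their own number, and replicate 3 with microglial replicate 1 (0.0699). In the fit with a replicate block, 2793 genes were called, 2705 of them shared, 451 injury genes were called and 5 genes differed between genotypes, and the log2 fold changes of Socs3 (-0.022), Elane (-0.247) and Cd86 (0.000) changed to, from or through zero. Of the genes given values, Nkg7 lost its call with the block (adjusted p = 0.0632), and Ace (0.0291), Ly6i (0.0253) and Ifitm6 (0.0493) gained one. With 3 libraries a group and 14 residual degrees of freedom, genes under about 0.158 CPM (3 counts in infiltrating replicate 2, the highest such floor of the 6 libraries) could not be told from 0.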

Other observations

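Some levels ran side by side in the infiltrating and the microglial library of the same replicate number, although the sources used here do not say that a number marks shared brains. P2ry12 in infiltrating libraries 1, 2 and 3 was 12.1, 12.5 and 12.5% of its level in the microglial library of that number, while the microglial level itself ranged from 169 to 659 CPM. Tmem119 was at 25.3, 26 and 23.6%. The 6 red cell genes summed to 34.6 and 35.6 CPM in the infiltrating and microglial libraries numbered 1, to 0.211 and 0.181 CPM in those numbered 2, and to 10.7 and 9.56 CPM in those numbered 3. Other resident genes were less even, with Csmd3 at 1.89, 2.13 and 3.75% and Sall1 at 5.93, 8.79 and 6.55%. The pattern was noticed in the data and no test was made of it.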
